A study of Homo sapiens with 4 samples.

Results

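The 10 genes described here are the Notch receptors NOTCH1, NOTCH2 and NOTCH3, the ligands JAG1 and JAG2, and the nuclear effectors HES1, HES2, HES4, HES7 and HEY1. They were taken by gene symbol from a table of 36359 genes, and all 10 were found. They were chosen by name with the siPRR11 against siNC differences of these libraries already known, among them the fall of HES7, so their differences in that contrast are given as a description and without a p-value. Messenger RNA was sequenced from ACHN, an established line of human renal cell carcinoma, into which a lipid reagent had carried either a control siRNA (siNC) or siRNA against PRR11 (siPRR11), with 2 libraries of each. All 4 libraries came from the same line and medium, the labels name no other treatment, and neither harvest time nor the siPRR11 duplex used for each library was found in the sources. The samples carry the labels of replicates, but nothing says that they were separate cultures, so every SD and p-value covers only the spread between these libraries.

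Notch is a receptor that is cut in order to signal. A Jagged or Delta-like ligand on a neighbouring cell pulls on the receptor, and a sheddase such as ADAM10 and then gamma-secretase cut it. The freed intracellular domain joins the DNA-binding protein RBPJ and a Mastermind coactivator to switch on genes of the HES and HEY families. Those genes encode basic helix-loop-helix repressors, and HES1 and HES7 are best known as oscillating genes that bind and repress their own promoters, HES7 in the segmentation clock of the embryo. In the kidney, Notch signaling patterns the proximal segments of the developing nephron.

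Because HES genes answer to RBPJ and to HES proteins themselves, the promoters of HES7, the member with the largest difference, and of HES1 and HES4, the members that hold an RBPJ site, are shown, each as the 250 bases before the RefSeq start of transcription (GRCh38.p14), read 5' to 3' on the strand of the gene. HES1 (chr3:194135898-194136147, plus strand), HES4 (chr1:1000098-1000347, minus strand) and HES7 (chr17:8124107-8124356, minus strand) were chosen after their values were known. Capitals mark matches on either strand to an RBPJ site (GTGGGAA), a class C site (CACGCG), an N box (CACNAG) and a CCAAT box.
HES1: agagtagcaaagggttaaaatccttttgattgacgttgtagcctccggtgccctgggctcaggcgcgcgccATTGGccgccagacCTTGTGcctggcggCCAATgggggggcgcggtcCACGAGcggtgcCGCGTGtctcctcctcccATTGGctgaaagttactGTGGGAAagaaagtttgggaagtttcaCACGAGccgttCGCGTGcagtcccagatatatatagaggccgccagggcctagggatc
HES4: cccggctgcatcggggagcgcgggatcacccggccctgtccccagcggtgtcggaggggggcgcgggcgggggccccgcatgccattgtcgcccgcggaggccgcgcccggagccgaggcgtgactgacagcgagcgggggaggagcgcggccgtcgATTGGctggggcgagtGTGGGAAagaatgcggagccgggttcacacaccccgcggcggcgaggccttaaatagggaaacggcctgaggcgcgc
HES7: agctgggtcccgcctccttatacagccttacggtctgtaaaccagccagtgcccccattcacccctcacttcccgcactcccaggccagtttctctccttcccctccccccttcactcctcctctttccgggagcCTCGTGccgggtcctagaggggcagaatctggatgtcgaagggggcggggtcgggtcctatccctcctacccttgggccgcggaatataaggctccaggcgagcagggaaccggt

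The HES1 window held 9 matches, namely 1 RBPJ site at 85 to 79 bases before the start, 2 class C sites, 3 N boxes and 3 CCAAT boxes. The HES4 window held 1 RBPJ site at 77 to 71 bases before the start and 1 CCAAT box. The HES4 gene as counted reaches base 1000172, inside this window, so positions here refer to the RefSeq start only. In both genes a CCAAT box lay just upstream of the RBPJ site, 12 bases away in HES1 and 11 bases away in HES4. The HES7 window held a single N box at 115 to 110 bases before the start and none of the other motifs. Promoter windows were found for 9 of the 10 members, and among those 9 only HES1 and HES4 held the RBPJ site, which 5.43% of 35116 promoter windows of the same length held. An N box is common, in 32% of windows, and among the 9 members it was found in HES1, HES7 and NOTCH3. Class C sites were found in 9.72% of windows and in the members HES1 and JAG2. The E box CACGTG (6.34% of windows) and TATAAA (10.7%) were searched as well and matched none of the 9. The motifs did not overlap one another in these windows. A match is a run of letters, not a site shown to be bound in these cells.

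**Figure D1:**
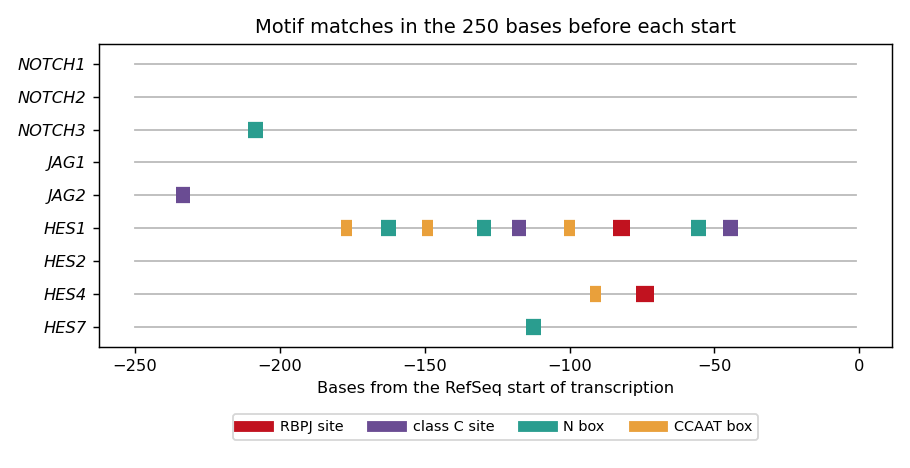
Matches to 4 motifs in the 250 bases before the RefSeq start of 9 members, with the position in bases on the x axis and 1 line for each gene. The RBPJ site (red) appears in HES1 and HES4, close to a CCAAT box (orange) in both, and HES7 carries a single N box (green).

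Counted reads ranged from 59003839 to 92612749 per library. Members with few reads, among them HES1 and HES4 with 99 to 295 counts per library, had larger standard errors than NOTCH1 with 1187 to 2566. PRR11 itself stood at 41.3 and 40.4 CPM (counts scaled to library size with TMM factors) in the siNC libraries and at 15.3 and 14.0 CPM in the siPRR11 libraries, 35.9% of the control mean. The renal and epithelial markers PAX8, PAX2, KRT8 and KRT18 were all detected, as was VIM, which was listed with them. Together the 5 summed to 410 to 488 RPKM (reads scaled to exon length and library total), of which VIM held 120 to 138 RPKM. From siNC to siPRR11 cells their log2 fold changes were -0.22 for PAX8, -0.10 for PAX2, 0.14 for KRT8, 0.36 for KRT18 and -0.16 for VIM. Of 4 endothelial markers, PECAM1, CDH5, VWF and KDR, none exceeded 0.0312 RPKM in any library, and CDH5 was at 0 in both siNC libraries. Of the leukocyte markers, PTPRC and CD3E lay at or below 0.0119 RPKM, while CD68, most of whose exons are shared with another gene, lay between 20.3 and 28.0 RPKM in all 4 libraries. The 4 markers of smooth muscle and fibroblasts (MYH11, DES, COL1A1 and PDGFRA) summed to 4.81 and 5.54 RPKM in siNC cells. In siPRR11 cells they summed to 8.88 and 11.1 RPKM, mainly through COL1A1. Log2 fold changes were 0.90 for COL1A1, 1.64 for DES, 0.18 for MYH11 and 0.64 for PDGFRA. The part of these markers in the differences below was not tested.

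Among the 9 members with enough counts to be tested, all 9 passing the filter on low counts in both groups, 3 were called at an adjusted p-value of 0.05 when p-values of the quasi-likelihood test of edgeR were adjusted over all genes by the Benjamini-Hochberg method (the edgeR adjusted p). HES7 and JAG1 were lower and NOTCH1 was higher in siPRR11 cells. Of all 21630 genes tested, 16.7% were called, 7.61% as higher and 9.14% as lower. For 6 members the 2 siPRR11 libraries lay on one side of both siNC libraries, 3 above and 3 below, and this held for 58.4% of all genes tested. NOTCH3, the remaining member, had too few counts to be tested. The median log2 fold change was 0.02 over those 9 and 0.00 over all genes tested. The members were picked on this contrast, so nothing is read from these counts. In bulk RNA, fewer cells expressing a gene and less of its RNA in each cell cannot be told apart.

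**Figure D2:**
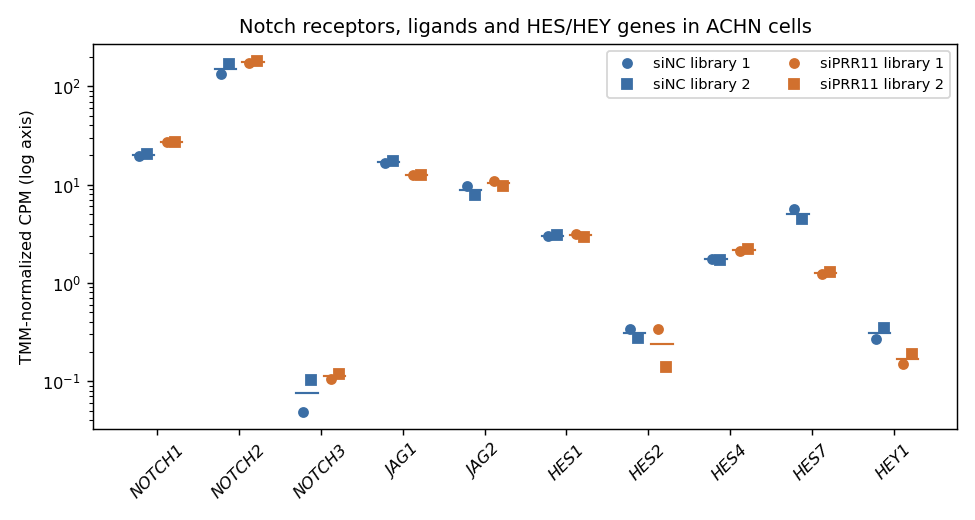
TMM-normalized CPM of the 10 members in each library, on a log axis. Points are single libraries (circles replicate 1, squares replicate 2), and horizontal bars are means of 2. HES7 falls from 5.05 to 1.26 CPM on average while the HES1 libraries lie between 2.96 and 3.13 CPM.

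HES7 showed by far the largest difference of the 10. It lies on chromosome 17 from 8120590 to 8124092 on the minus strand of GRCh38, and its exons are shared with no other gene of the annotation in the count table. Its level was 5.60 and 4.50 CPM in siNC cells and 1.22 and 1.30 CPM in siPRR11 cells, from 458, 261, 115 and 111 counted reads. Both siPRR11 libraries lay far below both siNC libraries, and the siPRR11 pair was closer together than the siNC pair. On average 24.9% of the control level remained (mean 5.05 with an SD of 0.779 against 1.26 with an SD of 0.0551 CPM, n = 2 in both groups). Its log2 fold change was -2.01 with a standard error of 0.179. HES7 was called under each of the 12 alternative settings, with fold changes between -2.15 and -1.84 when single libraries were left out. The settings reuse the libraries on which the members were chosen. Such tallies, here and for NOTCH1 and JAG1 below, describe only how calls depend on the processing. On the log2(RPKM + 1) scale, which compresses low genes, the difference was -1.11.

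HES1, the classical Notch target in most tissues, showed no detectable difference. It lies on chromosome 3 from 194136145 to 194138732 on the plus strand. Its level was 2.97 and 3.04 CPM in siNC cells and 3.13 and 2.96 CPM in siPRR11 cells. The groups overlapped, and the log2 fold change was 0.02 with a 95% interval of -0.32 to 0.36. Changes of HES1 within that interval could not be resolved with these libraries.

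HES4, a close relative of HES1 at chromosome 1 from 998962 to 1000172 on the minus strand, was not called under any setting. It stood at 1.75 and 1.71 CPM in siNC and at 2.11 and 2.22 CPM in siPRR11 cells, without overlap. The log2 fold change of 0.32 had an interval of -0.08 to 0.73. Its nearest neighbour, RP11-54O7.17 at 910 bases on the same strand, was at 0.147 and 0.121 CPM in siNC and at 0.339 and 0.292 CPM in siPRR11 cells and was not called (log2 fold change 1.22, edgeR adjusted p = 0.117). On its other side HES4 sits 965 bases from ISG15, an interferon-stimulated ubiquitin-like gene on the opposite strand, which went from 19.9 and 16.8 CPM to 31.7 and 28.9 CPM (log2 fold change 0.72 ± 0.105 SE, edgeR adjusted p = 0.000877).

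HES2 and HEY1 were near the limit of detection. HES2, on chromosome 1 from 6412418 to 6424670, was counted 28 and 16 times in siNC and 32 and 12 times in siPRR11 libraries, and the ranges overlapped. The fitted log2 fold change, -0.36, turned to 0.12 without siPRR11 library 2, so no direction can be given. HEY1, an effector of Notch in vessels and bone, was counted 22 and 20 times in siNC and 14 and 16 times in siPRR11 libraries. Its levels of 0.269 and 0.345 CPM against 0.149 and 0.187 CPM did not overlap, but the log2 fold change of -0.86 had a standard error of 0.482 and an interval of -1.91 to 0.20 and was not called.

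Of the receptors, NOTCH1 was higher in siPRR11 cells and NOTCH2 was not called. NOTCH1 (chromosome 9, bases 136494444 to 136545862, minus strand) was at 19.5 and 20.5 CPM in siNC and at 27.2 and 27.3 CPM in siPRR11 cells. The groups were clearly apart, and the log2 fold change was 0.45 (standard error 0.0887). NOTCH1 was called under 10 of the 12 alternatives and missed the threshold with limma on log2 RPKM at both pseudocounts, where the difference was 0.35 with a pseudocount of 1 and 0.48 with 0.1.

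NOTCH2 (chromosome 1, bases 119911553 to 120069626, minus strand) was at 135 and 168 CPM in siNC and at 173 and 179 CPM in siPRR11 cells. Both siPRR11 libraries were the higher ones, but siNC library 2 lay close beneath them. The log2 fold change of 0.22 was not called, and it was 0.07 without siNC library 1 and 0.38 without siNC library 2, where it was called. It was also called without the filter on low counts. The table also lists NOTCH2NL, a partial copy of NOTCH2 on the same chromosome, at 11.0 and 12.5 CPM in siNC and 12.3 and 13.0 CPM in siPRR11 cells. How reads common to both were assigned is not given in the sources used here, so the values of both are uncertain.

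NOTCH3, known from the smooth muscle of arteries, was close to 0. The 4 libraries held 4, 6, 10 and 10 reads of it, siNC first, and the gene was not tested. On chromosome 19 it spans 15159038 to 15200981.

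Of the Jagged ligands, JAG1 was lower in siPRR11 cells and JAG2 was not called. The difference between them was not tested. JAG1 (chromosome 20, bases 10637684 to 10674107, minus strand) was at 16.7 and 17.5 CPM in siNC and at 12.4 and 12.5 CPM in siPRR11 cells, 72.6% of the control mean. Replicates lay close together and the groups were well apart, with a log2 fold change of -0.46 (standard error 0.0967). JAG1 was called under 9 of the 12 alternatives, and not with limma on log2 RPKM at either pseudocount or without siPRR11 library 1, where the fold change was -0.45. JAG2 (chromosome 14, bases 105140981 to 105168824, minus strand) was at 9.73 and 7.80 CPM in siNC and at 10.9 and 9.65 CPM in siPRR11 cells. The ranges overlapped, and the log2 fold change of 0.22 had an interval of -0.06 to 0.51. It was not called in any setting, and ran from 0.08 without siNC library 2 to 0.40 without siNC library 1. Another gene on the same strand shares 7.33% of the exonic bases of JAG2, and a gene on the other strand shares 0.926% of those of JAG1.

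**Figure D3:**
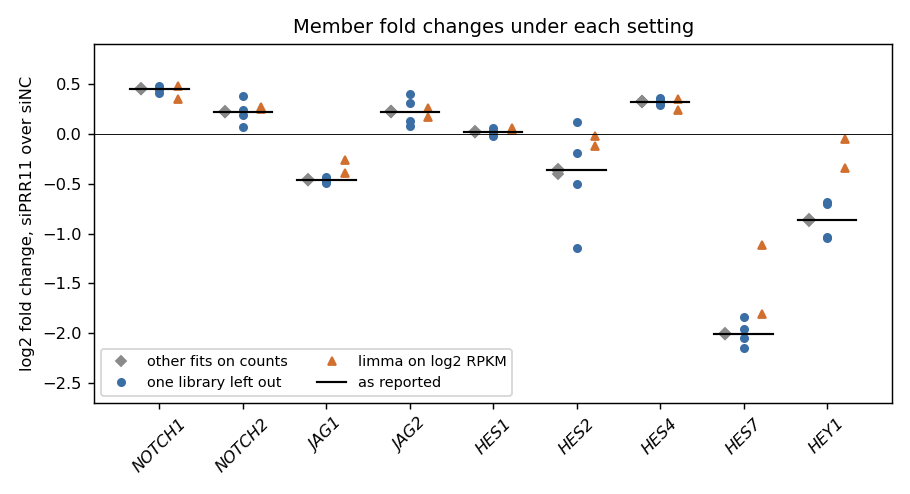
Log2 fold change of the 9 tested members as reported (bar) and under each alternative (points). The HES7 values lie between -2.15 and -1.11 in every setting, while HES2 spreads from -1.14 to 0.12 when single libraries are left out.

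Levels of different genes were compared per length, as the authors' RPKM. In siNC cells NOTCH2 led with 8.86 RPKM on average, above 77.8% of the genes tested, and HES7 came next with 2.66 RPKM (2.95 and 2.37 RPKM), ahead of HES1 at 1.43 RPKM. NOTCH1 (1.99 RPKM) and JAG1 (1.97 RPKM) were not separated by their spread, and neither were HES1 and JAG2 (1.35 RPKM), with HES4 at 1.52 RPKM just above that pair. HEY1, HES2 and NOTCH3 followed far below at 0.0934, 0.0562 and 0.00798 RPKM. In siPRR11 cells the order was NOTCH2 (10.6 RPKM), NOTCH1 (2.80 RPKM), HES4 (1.97 RPKM), then JAG2, HES1 and JAG1, whose neighbours overlapped at 1.63, 1.50 and 1.48 RPKM. HES7 had moved from the second to the seventh place with 0.685 RPKM (0.665 and 0.705 RPKM). HEY1, HES2 and NOTCH3 remained the lowest at 0.0528, 0.0451 and 0.0121 RPKM, the first 2 of them overlapping.

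**Figure D4:**
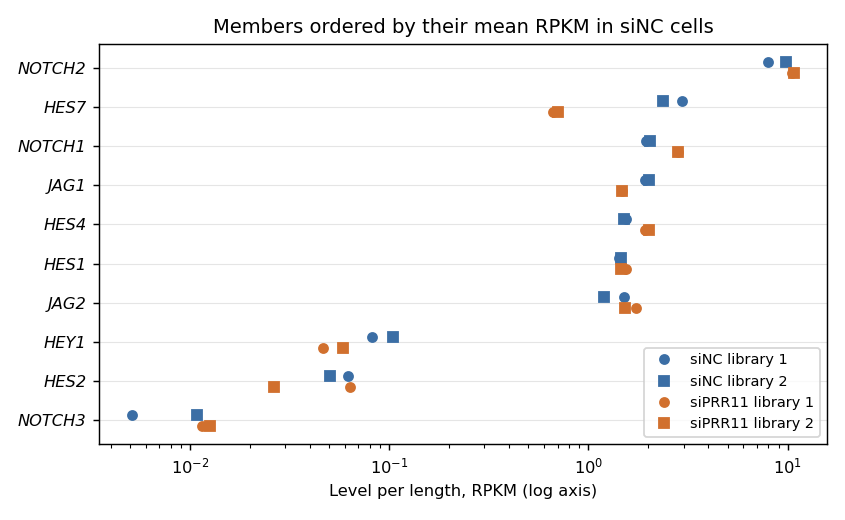
RPKM of each member in each library on a log axis, with genes ordered by their mean in siNC cells. HES7 is the second of 10 in siNC cells at 2.66 RPKM and lies below HES1 in siPRR11 cells at 0.685 RPKM.

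The rest of the pathway was followed in a list of other ligands, receptors, processing enzymes, nuclear partners and targets drawn up from general knowledge of Notch signaling. Its genes were chosen with earlier results of these data known, so its share of calls is given as a description. The count table held 63 of these genes, and HES3, HES5 and NEUROG3 were not analysed here. Of the 63, 56 were tested and 10 were called, 2 higher and 8 lower, which is 17.9% against 16.7% of all genes tested. The share called was thus close to the background. By direction, the background was 7.61% called higher and 9.14% called lower. The median log2 fold change of the 56 was -0.03.

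Among the ligands and receptors outside the 10, none of those tested was called. NOTCH4 had 33, 6, 34 and 20 counts, siNC first, and a log2 fold change of 0.16 with an interval of -1.07 to 1.39. DLL1 and DLL3 stood below 0.8 CPM in every library with overlapping groups, and DLL4, with 2 to 13 counts, was not tested. EGFL7, a secreted non-canonical ligand, was at 18.1 and 16.0 CPM in siNC and at 12.2 and 15.1 CPM in siPRR11 cells (log2 fold change -0.32, edgeR adjusted p = 0.0872). EGFL7 was called without siNC library 2 (-0.41), without siPRR11 library 2 (-0.48) and without the filter on low counts, and was at -0.18 without siPRR11 library 1. Among the other HES and HEY genes, HES6, which antagonizes HES1, was at 4.75 and 5.48 CPM in siNC and at 3.56 and 4.44 CPM in siPRR11 cells and was not called (log2 fold change -0.35, interval -0.69 to -0.01, edgeR adjusted p = 0.155). HEYL, at 6.94 and 7.66 CPM against 6.35 and 7.38 CPM, had one of -0.09 (interval -0.37 to 0.19), and HEY2 was counted in 1 library only.

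Of the enzymes that modify and cut the receptor before gamma-secretase, 2 of 3 tested convertase and sheddase genes and 1 of 5 glycosylation genes were called, all lower, against 9.14% of all genes tested. ADAM17, a sheddase of Notch and of many growth factors, fell from 213 and 221 CPM to 151 and 153 CPM (log2 fold change -0.51 ± 0.071 SE, edgeR adjusted p = 0.000669). IAH1 on the other strand shares 24.1% of its exonic bases. ADAM10, the other sheddase, was not called and was at 281 and 306 CPM in siNC and at 320 and 343 CPM in siPRR11 cells (log2 fold change 0.18, interval 0.01 to 0.34, edgeR adjusted p = 0.137). FURIN, the convertase that cleaves the receptor precursor, fell from 14.0 and 14.5 CPM to 9.98 and 9.71 CPM (log2 fold change -0.53, edgeR adjusted p = 0.00435). POFUT1, which adds O-fucose to the receptor, fell by 0.28 on the log2 scale (edgeR adjusted p = 0.0477), and its call was lost without siNC library 2 (-0.23), without siPRR11 library 1 (-0.18) and with both limma fits. No other of the 5 glycosylation genes was called, and the FURIN call was lost in the limma fits only.

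Of the 6 gamma-secretase subunits, 1 rose, 1 fell and 4 were not called. Over all genes tested, 7.61% were called higher and 9.14% lower. APH1B rose from 4.32 and 5.11 CPM to 8.78 and 9.05 CPM (log2 fold change 0.93 ± 0.13 SE, edgeR adjusted p = 0.000682), the largest rise of the list. Its paralog APH1A, named after its values were seen, was at 37.5 and 35.6 against 33.8 and 34.3 CPM (log2 fold change -0.10, interval -0.28 to 0.08). PSEN2 fell by 0.31 on the log2 scale (edgeR adjusted p = 0.0381), a call lost with both limma fits and without siNC library 2 (-0.30), siPRR11 library 1 (-0.34) or siPRR11 library 2 (-0.28). NCSTN had a log2 fold change of 0.09 (interval -0.08 to 0.27). None of the 3 tested ligand endocytosis genes was called, and MIB1, the most abundant per length, was at 54.2 and 69.2 against 54.8 and 54.5 CPM. Without siNC library 1 its log2 fold change of -0.17 became -0.34 and was called, and without siNC library 2 it was 0.01.

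In the nucleus, RBPJ was the single coactivator complex gene of 8 that was called, against 16.7% of all genes tested. Its level went from 33.7 and 40.5 CPM to 29.1 and 28.5 CPM (log2 fold change -0.37 ± 0.0991 SE, edgeR adjusted p = 0.026), and its call was lost in 5 of the 12 alternatives, without siNC library 2 (-0.23), siPRR11 library 1 (-0.38) or siPRR11 library 2 (-0.35) and with both limma fits. SNW1 was at 160, 152, 155 and 152 CPM, siNC first, with an interval of -0.18 to 0.13 for its log2 fold change. Of 11 corepressors only TLE3, a Groucho protein that HES factors recruit, was called, again beside 16.7% of all genes tested. HDAC1, also listed there, just missed the threshold (log2 fold change 0.23, edgeR adjusted p = 0.0558). It was called with DESeq2, with the replicate block, without the filter on low counts and with 10 counts required in every library. TLE3 rose from 16.1 and 15.4 CPM to 21.3 and 19.5 CPM (log2 fold change 0.37, edgeR adjusted p = 0.0215). That call was lost with both limma fits and without siPRR11 library 1 (0.30).

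Among 8 genes of receptor turnover, NUMBL, an endocytic adaptor related to NUMB, fell from 19.9 and 21.3 CPM to 12.9 and 13.8 CPM (log2 fold change -0.62 ± 0.0971 SE, edgeR adjusted p = 0.00133). DTX2 was not called (log2 fold change 0.22, edgeR adjusted p = 0.244), but its value rested on the siNC libraries, at 0.44 and called without library 1 and at 0.04 without library 2. FBXW7, which marks the Notch intracellular domain for degradation and was named here after its values were seen, was at 35.7 and 40.9 against 37.6 and 38.0 CPM (log2 fold change -0.02, interval -0.21 to 0.18).

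Other genes known as Notch targets in some tissues were represented by 4 tested genes, of which the cell growth regulators MYC and CCND1 were called and NRARP and SNAI2 were not. Both calls were lower, and 9.14% of all genes tested were called lower. MYC fell from 73.5 and 81.0 CPM to 39.0 and 44.5 CPM (log2 fold change -0.89 ± 0.0901 SE, edgeR adjusted p = 9.23e-05). CCND1 was at 143 and 237 CPM in siNC and at 90.9 and 138 CPM in siPRR11 cells, and the libraries of each group were far apart. Its log2 fold change of -0.73 (edgeR adjusted p = 0.0326) was -0.32 without siNC library 2, where it was not called. The call was also lost with DESeq2 and both limma fits, and ORAOV1 on the other strand shares 10.3% of its exonic bases. NRARP, a feedback inhibitor of Notch, was counted 34, 8, 7 and 20 times, siNC first, with overlapping groups and an interval of -2.34 to 0.51 for its log2 fold change. SNAI2, a transcription factor of epithelial-mesenchymal transition, was at 3.87 and 3.67 against 3.59 and 3.37 CPM (log2 fold change -0.12, interval -0.44 to 0.21). Among genes that HES1 is known to repress, CDKN1B was at 232 and 210 against 197 and 186 CPM and was not called (log2 fold change -0.20, edgeR adjusted p = 0.0977). It was called with a block for the replicate number (-0.20) and without siNC library 2 (-0.27). ATOH1 had too few reads to be tested.

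**Figure D5:**
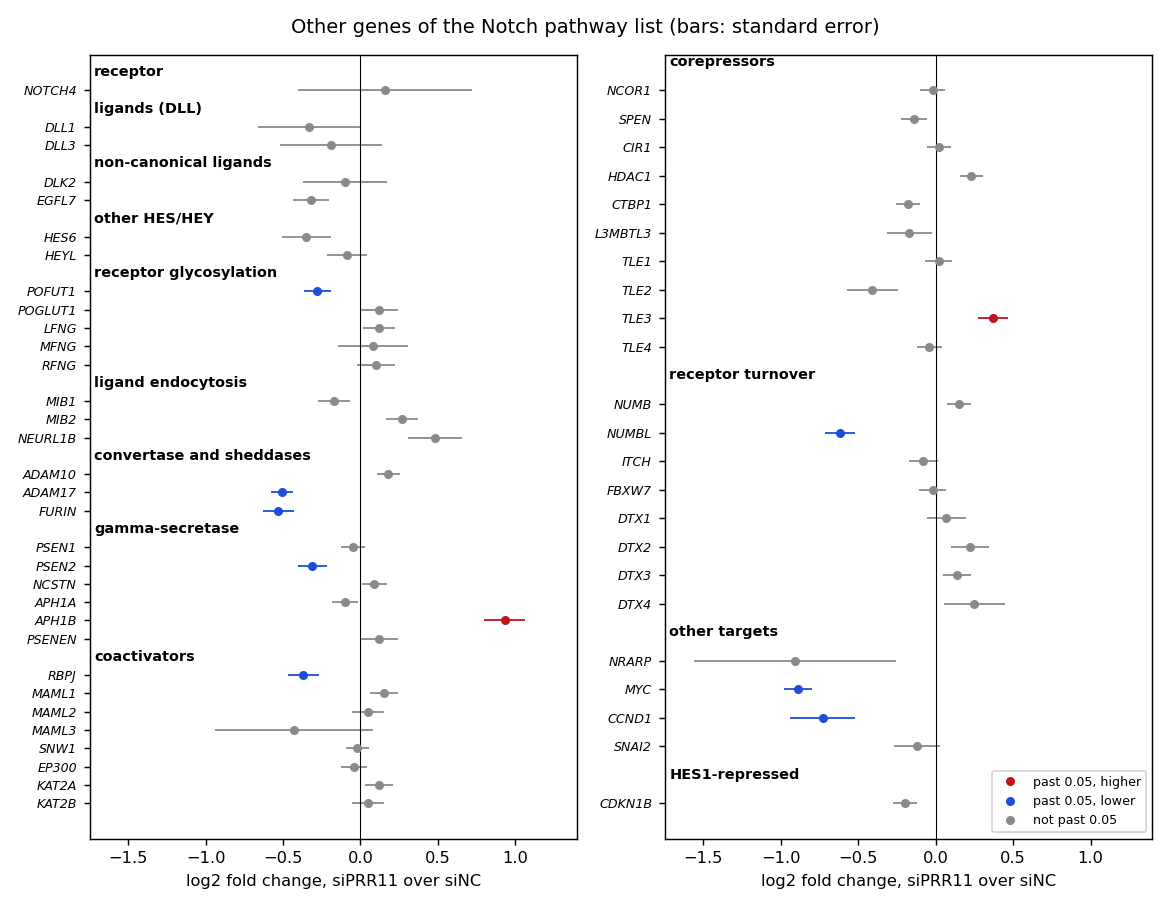
Log2 fold change of 55 of the 56 tested genes of the pathway list, grouped by role, with bars of 1 standard error. The 10 called genes are coloured, and APH1B and TLE3 are the only ones of them to the right of 0.

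The neighbours of HES7 on chromosome 17 were examined in the same libraries. ALOXE3, an epidermal lipoxygenase gene 1542 bases away, was at 0.587 and 0.897 CPM in siNC and at 0.446 and 0.351 CPM in siPRR11 cells. The groups did not overlap, but its log2 fold change of -0.87 had an interval of -1.65 to -0.10 and was not called (edgeR adjusted p = 0.118). PER1, a circadian clock gene 16379 bases away on the other side, was at 8.05 and 7.12 CPM in siNC and at 8.25 and 8.24 CPM in siPRR11 cells (log2 fold change 0.12, interval -0.14 to 0.38). HES1 and HEY1 had as nearest annotated neighbours only transcripts too low to be tested. Next to HES2, 117 bases away, ESPN was at 0.881 and 0.655 CPM against 0.806 and 1.12 CPM, with overlapping groups.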

How the data were processed

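RNA-seq was performed on 4 libraries of ACHN cells, 2 siNC and 2 siPRR11. The authors prepared stranded libraries and mapped trimmed reads to GRCh38 with STAR. The submitters' processing notes list Trimmomatic 0.36, featureCounts and Subread 1.5.1. Neither the annotation release nor whether strand was used in counting is given in the sources used here. The deposited counts are raw reads per gene. The deposited RPKM values are counts divided by exon length and by the total counted reads of the library.

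Counts were fitted with edgeR 4.0.16 in R 4.3.3 (TMM, filterByExpr with a minimum of 0.12 CPM in 2 libraries, quasi-likelihood test with condition as the only term), and p-values were adjusted over 21630 genes by the Benjamini-Hochberg method. Intervals are at 95%, from standard errors derived from the F statistic of that test. They hold for single genes and are not adjusted for the number of genes tested. An interval can therefore lie on one side of no change for a gene that was not called. The 12 alternatives were each of the 4 libraries left out, limma 3.58.1 on log2 of RPKM plus 1 or plus 0.1, a block for the replicate number, DESeq2 1.42.0, the exact test of edgeR, RLE scaling, and a filter of 10 counts per library or none. Members and lists were chosen with earlier results of these data known. Named pathway genes were those called, the most abundant per length in each class, and the HES, HEY, NOTCH and DLL genes. The nearest gene on each side of a HES or HEY member and the 3 profiles nearest to HES7 were added. ADAM10, APH1A, FBXW7, HDAC1, NRARP, SNAI2 and ATOH1 were named outside these rules, with their values known. So were CTBP1, TLE2, MIB2 and NEURL1B. The test was checked on simulated counts with known changes. It recovered 41 of 66 genes changed by 0.5 on the log2 scale. At changes of 1 and of 2 it recovered 67 of 67. There were 10 false calls with 21497 genes tested. A gene that was not called can therefore still differ by about 0.5. A few listed genes are not reported here. Promoter sequences are from RefSeq (GRCh38.p14).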

Additional observations from a re-analysis of the deposited data

How the results depend on the processing

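Over the 21630 genes, 3622 passed an adjusted p-value of 0.05, and 6988 passed with the replicate number as a block, 1775 and 1878 with limma on log2 RPKM plus 1 and plus 0.1. With single libraries left out the count ran from 2217 to 4251. In the limma fits 61.5% and 61.3% of the called genes were higher, against 45.4% in the fit as reported. The RPKM values used there carry no TMM scaling, whose factors were 0.984 and 0.983 for siNC and 1.018 and 1.015 for siPRR11 libraries. The median log2 fold change over all genes was 0.02 and 0.04 in the limma fits and 0.00 as reported. The number of members called was 3, and 1 with limma at either pseudocount (HES7), and between 2 and 4 with a library left out. For the other pathway genes it was 10 as reported, 21 with the block, 4 with limma at either pseudocount, and 6 to 14 with a library left out. The causes were not tested. A fit without 1 library leaves its group with a single one, whose spread is taken to be like that of the other group.

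The replicate numbers of the labels do not tie libraries across groups to a shared culture or day. The deviations of equal numbers from their group means correlated at 0.48 over 14193 genes, which with only 2 numbers is a hint from the data. With the replicate block NOTCH2 was called as well (log2 fold change 0.22), as were EGFL7, HES6, ADAM10, DTX2, CDKN1B, HDAC1, CTBP1, TLE2 and all 3 tested ligand endocytosis genes (MIB1, MIB2 and NEURL1B), and no call was lost. Of 108 member values under alternatives, 98 kept their direction and side of the threshold. When libraries were left out, HES1 ran from -0.02 to 0.06, HES2 from -1.14 to 0.12, NOTCH4 from -0.43 to 1.51, DLL3 from -0.39 to 0.01, HEYL from -0.20 to 0.02, MIB1 from -0.34 to 0.01, and SNW1 from -0.06 to 0.01. With limma, SNW1 was at 0.02 at both pseudocounts. Depth limits HES2, HEY1 and NOTCH3, which had at most 32 counts in any library.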

Other observations

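Profiles were compared with 14192 other genes whose average log2 CPM reached 1. Those whose centred log2 CPM over the 4 libraries lay nearest to HES7 were VGF, STEAP1 and COL4A4, at Euclidean distances of 0.17, 0.34 and 0.43. VGF, a neuroendocrine secretory protein, was at 75.2 and 67.4 CPM in siNC and at 15.6 and 17.4 CPM in siPRR11 cells. STEAP1, a membrane protein of the metalloreductase family, was at 4.44 and 4.47 CPM in siNC and at 1.26 and 1.05 CPM in siPRR11 cells. COL4A4, a basement membrane collagen chain, was at 18.7 and 17.0 CPM in siNC and at 6.07 and 4.84 CPM in siPRR11 cells. As with HES7, the siPRR11 libraries of each lay well below the siNC libraries, which follows from how these genes were picked. The likeness rests on 4 libraries, 2 of them in each group, and is given as a description.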
